A study of Homo sapiens with 6 samples.

Results

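CELF1, also named CUGBP1, is an RNA-binding protein of the cytoplasm and nucleus that recognizes GU-rich stretches, above all in 3′ UTRs. It changes the stability, splicing or translation of the mRNAs that hold them. In other systems it was described as speeding decay, whereas the paper reports that it stabilized DEK mRNA in melanoma cells. Pseudogenes are gene copies that have lost the protein reading frame of their parent. Processed pseudogenes arose when a spliced mRNA was copied back into the genome, unprocessed pseudogenes arose from duplicated DNA, and unitary pseudogenes are former genes with no working copy elsewhere. Nuclear copies of mitochondrial DNA are annotated as pseudogenes too. Because a recent pseudogene keeps the sequence of its parent almost intact, short reads of the parent mRNA can align to it equally well.

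The bins described here are those 20-bp bins of the genome that were listed in all 3 CELF1 RNA immunoprecipitation (IP) samples on chromosomes 1 to 22, and whose centre lay in an exon of an annotated pseudogene and in no exon of another gene type on the same strand (GRCh37, GENCODE). They numbered 431 of 271141 common bins, or 0.159% (95% Wilson interval 0.145 to 0.175%, counting error only). The samples were 1 IP of SK-Mel-103 cells and 2 IPs of UACC-62 cells (replicates 1 and 3), both human melanoma cell lines grown in serum and left untreated, and each IP was compared with the input RNA of the same lysate. The labels give 1 line as duplicates and the other as a single experiment, so the spread within SK-Mel-103 is unknown. Bins were listed by the study when their IP reads exceeded what the input predicted, so every value below holds only for bins that passed in all 3 samples.

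The lists held 780750 to 862731 bins, with 10958459 to 14436573 IP reads and 8453517 to 10161917 input reads. The pseudogene bins took 0.0951%, 0.0661% and 0.0790% of the listed IP reads in SK-Mel-103, UACC-62 replicate 1 and UACC-62 replicate 3, and 0.277%, 0.259% and 0.274% of the listed input reads. SOX10, a transcription factor of the melanocyte lineage, had listed reads in all 3 samples. MITF and MLANA were sparse in SK-Mel-103, where MITF had 48 IP reads against 1610 and 2243 in UACC-62. TYR and DCT had no listed bin in SK-Mel-103. In UACC-62 replicates 1 and 3, TYR had 900 and 788 IP reads and DCT 182 and 131. PMEL and TYRP1 had no listed bin in any sample. The epithelial markers EPCAM and KRT5 had none either, and the leukocyte marker PTPRC had 25 and 8 IP reads in the UACC-62 replicates.

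The 431 bins lay in 114 pseudogenes, of 14081 annotated on these chromosomes, when each bin was counted under 1 gene (2 bins lay in exons of 2 pseudogenes). They formed 250 stretches separated by more than 40 bp. A single bin was found in 53 of the pseudogenes, and 22 pseudogenes with 5 or more bins held 279 of the bins. By annotated type, 150 bins were in processed pseudogenes, 134 in transcribed processed, 75 in unprocessed, 47 in transcribed unitary, 19 in transcribed unprocessed and 6 in pseudogenes of no stated type. In any of the 3 samples 2950 bins in pseudogene exons were listed, and 14.6% of them were listed in all 3 (13.4 to 15.9%). Of the 841709 bins listed in protein-coding exons, 29.3% were.

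The sequences show what the aligner had to tell apart. The reads were 40 nt long and were aligned with up to 2 mismatches. The windows of 40 nt below are given as RNA of the transcript strand, with the base that differs between the pseudogene and its parent in capitals. They were chosen because they hold the most IP reads, by the lowest of the 3 samples, among the near-copy bins of their pseudogene. HSP90AB3P (chr4:88813171-88813210, plus strand) is a processed copy of HSP90AB1, a cytosolic HSP90 chaperone (chr6:44217143-44217182, plus strand, coding region). MTCO1P12 (chr1:566571-566610, plus strand) is a nuclear copy of MT-CO1, a mitochondrial gene for a subunit of cytochrome c oxidase (GRCh37 mitochondrial genome, 6021 to 6060).
HSP90AB3P: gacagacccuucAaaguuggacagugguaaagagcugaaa
HSP90AB1: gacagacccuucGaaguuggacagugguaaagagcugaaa
MTCO1P12: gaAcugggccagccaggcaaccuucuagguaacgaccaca
MT-CO1: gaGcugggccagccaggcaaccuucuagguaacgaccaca

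Counted from 1 at the 5′ end, with the parent base first, the differences were G13A in the HSP90AB3P window and G3A in the MTCO1P12 window. In SK-Mel-103, UACC-62 replicate 1 and UACC-62 replicate 3, the HSP90AB3P bin had IP reads of 87, 57 and 85. The bin at the matching place of HSP90AB1 held 75, 44 and 96. The MTCO1P12 bin held 97, 230 and 390 IP reads, the highest values of any pseudogene bin in both UACC-62 replicates, and the matching mitochondrial bin held 80, 149 and 277. In both pairs the pseudogene and the parent carried IP reads in every sample. The MTCO1P12 bin had more IP reads than its mitochondrial match in all 3 samples. It also had more input reads, 150, 323 and 347 against 53, 129 and 116, so more IP reads there are not more IP over input. The HSP90AB3P bin had input reads of 206, 357 and 326, against 157, 307 and 214 at HSP90AB1.

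Such copies were the rule. Of the 431 windows, 239 occurred elsewhere in the genome or across an exon junction with no mismatch, 113 occurred with 1 or 2 mismatches, and 79 had no other place within 2 mismatches. Thus 81.7% of the pseudogene windows had another copy (77.7 to 85.0%). The share was 15.3% for the 246812 bins in protein-coding exons and 29.9% for the 3598 bins in exons of long non-coding RNAs (lncRNAs). The best copy lay in a protein-coding exon for 234 bins, in the mitochondrial genome for 67, in another pseudogene for 32 and elsewhere for 19. Within protein-coding genes, 197 of the 234 best copies lay in coding regions and 33 in 3′ UTRs.

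**Figure D1:**
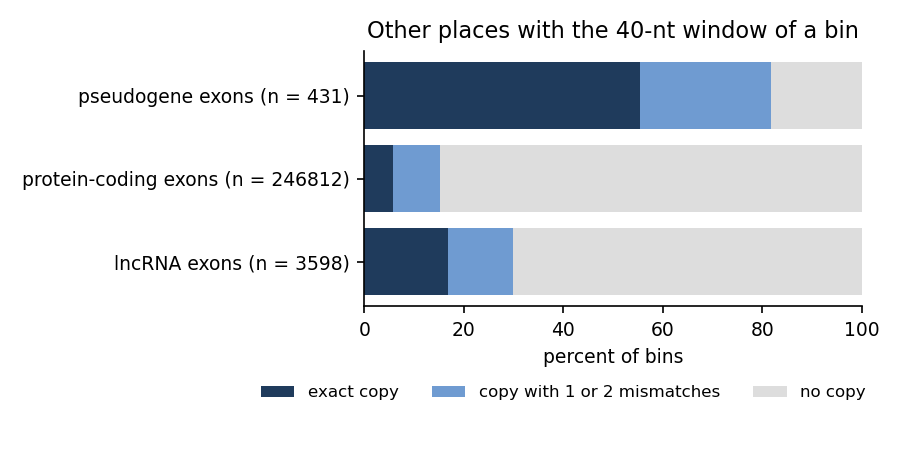
Bars give the percent of bins (x axis) whose 40-nt window has an exact copy, a copy with 1 or 2 mismatches, or no other copy, for bins in pseudogene, protein-coding and lncRNA exons. No copy was found for 18.3% of the pseudogene bins, against 84.7% of the protein-coding bins.

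Pseudogene bins carried nearly as many IP reads as protein-coding exon bins but more input. In SK-Mel-103, UACC-62 replicate 1 and UACC-62 replicate 3 the median bin had IP reads of 12, 10 and 15, near the 13, 12 and 16 of protein-coding exon bins. Its input reads were 22, 30 and 25, against 9, 13 and 11. The ratio of IP to input was therefore expressed as log2 of reads divided by the column total, with 1 read added to each side. The totals are those of the listed bins, which had passed for IP reads above what the input predicted. A value of 0 thus marks the pooled ratio of listed bins, and above or below input is meant in this sense throughout. The median was -1.09 in SK-Mel-103 and -1.51 ± 0.027 (SD, n = 2) in UACC-62 for pseudogene bins. In protein-coding exon bins it was 0.09, -0.19 and 0.02 in the 3 samples in the order above.

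The difference in this median between pseudogene and protein-coding bins was -1.18, -1.34 and -1.50 on the log2 scale, with a mean of -1.34 ± 0.16 (SD, n = 3 samples). It was lower in 3 of 3 samples (two-sided exact sign-flip permutation test, p = 0.25, adjusted p = 0.375 over 3 tests), and 0.25 is the smallest p that 3 samples allow. The mean difference was -0.59 when each gene was counted once with its bins summed, and -3.02 among bins with more than 30 IP reads in all 3 samples. The scaled IP exceeded the scaled input in 18.6%, 16.5% and 17.6% of the pseudogene bins, compared with 52.0%, 45.6% and 50.4% of the protein-coding bins (exact p = 0.25, adjusted p = 0.375). Bins with more than 30 IP reads, the minimum the study used, made up 21.3%, 15.5% and 25.3% of pseudogene bins against 19.1%, 18.5% and 27.8%, a difference with no common direction (exact p = 0.50).

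Across all 3 samples, 305 pseudogene bins (70.8%, 66.3 to 74.9%) had less scaled IP than input, where the background over all common bins was 33.4%. IP exceeded input in all 3 samples in 35 (8.12%), where the background was 37.3%. More than 30 IP reads in all 3 samples were found in 36 bins (8.35%), close to the background of 10.9%. These 36 bins lay in 13 pseudogenes, 9 of them in MTCO1P12, 5 in ANXA2P2, 4 in HSP90AB3P and 4 in RPL13AP20.

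The kind of exon that a bin was compared with moved these values. In coding regions of protein-coding genes the median log2 IP over input was -0.79, -1.27 and -1.10 in the 3 samples, whereas in 3′ UTRs it was 0.52, 0.35 and 0.52. Against coding regions alone the mean difference of the pseudogene bins was -0.31, a comparison added after the values had been seen. IP exceeded input in all 3 samples in 9.07% of the coding-region bins, similar to the 8.12% of pseudogene bins, and in 45.7% of the 3′ UTR bins. Bins also differ in their input reads. Within 4 classes of input reads (up to 5, 6 to 20, 21 to 50 and 51 or more), the difference to protein-coding exons was -0.54, -0.57 and -0.70 when weighted by the pseudogene bins.

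**Figure D2:**
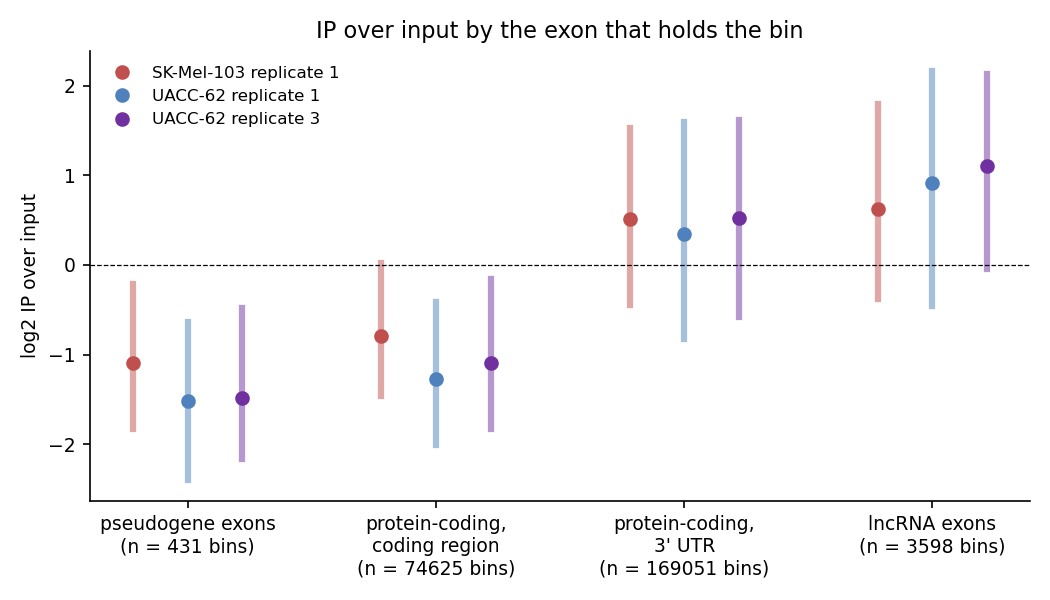
Points give the median log2 IP over input (y axis) of the bins in each kind of exon for the 3 samples, and bars run from the lower to the upper quartile. Pseudogene bins lie near the bins of coding regions and below those of 3′ UTRs and lncRNA exons.

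Copy number of the window was recorded beside the ratio. Pseudogene bins with an exact copy had medians of -1.07, -1.60 and -1.51, those with 1 or 2 mismatches -1.29, -1.79 and -1.70, and the 79 without a copy -0.75, -0.81 and -0.81. Protein-coding exon bins without a copy had medians of 0.16, -0.16 and 0.08, and those with an exact copy -0.37, -0.89 and -0.53. Of the 79 bins without a copy, 32 belonged to C19orf48P. The other 47 had medians of -0.37, -0.16 and -0.11. Whether ambiguous alignment contributes to the lower ratio was not tested.

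Pseudogenes of ribosomal protein, mitochondrial and chaperone genes held 49, 72 and 45 of the bins. None of these was above input in all 3 samples, where the share over all 431 pseudogene bins was 8.12%. Of the IP reads in pseudogene bins, ribosomal protein pseudogenes took 30.05%, 13.6% and 14.5% in SK-Mel-103, UACC-62 replicate 1 and UACC-62 replicate 3, and mitochondrial ones took 11.9%, 31.8% and 30.3%. Their order was thus reversed between the lines, of which SK-Mel-103 had a single sample. Families were assigned by gene symbol alone. ENSG00000224415, whose 2 bins match the RPL19 coding region, was therefore left out of the ribosomal protein family. By symbol, ribosomal protein pseudogenes contributed 49 bins in 16 pseudogenes. Their medians were -1.39, -2.52 and -1.99, and 14 of the 16 were below 0 in every sample when their bins were summed. The same held for 70 of all 114 pseudogenes, and the median protein-coding gene was also below 0 in each sample. Chaperone and cyclophilin pseudogenes, 7 of which carry HSP symbols and 1 of which is a copy of cyclophilin A, contributed 45 bins in 8 pseudogenes, with medians of -1.14, -2.10 and -1.82. Glycolytic enzyme pseudogenes, TPI1P2, TPI1P3 and LDHAP7, contributed 6 bins with medians of -1.92, -3.02 and -2.34. No glycolytic bin was above input in all 3 samples, but 6 bins are too few to read this against the share of 8.12%. Of the 35 bins that were, 34 lay outside the named families, where 231 of the 431 pseudogene bins lay. No small RNA or MHC class I pseudogene held a common bin, of 457 and 18 annotated under those symbols. Over all 14081 annotated pseudogenes the share with a common bin was 0.81%. At that share, no absence can be read from the 18 of MHC class I.

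**Figure D3:**
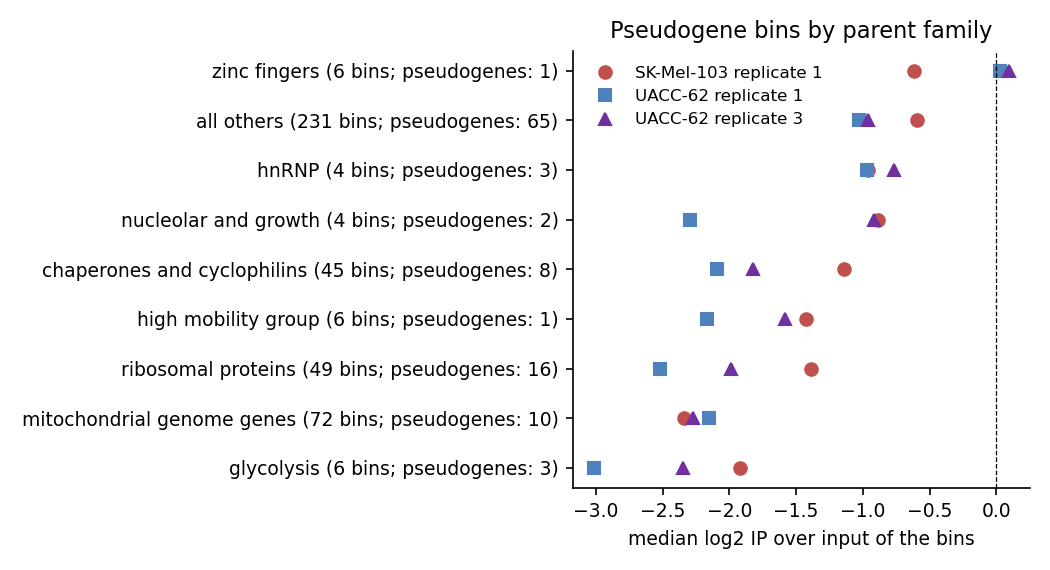
Points give the median log2 IP over input (x axis) of the pseudogene bins of each family with 4 or more bins, for the 3 samples. The mitochondrial family lies lowest in SK-Mel-103 and the glycolytic family lowest in both UACC-62 replicates. The 6 zinc-finger bins lie nearest to 0 in both UACC-62 replicates.

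ANXA2P2 (chr9:33624272-33625291, plus strand), a processed copy of the gene for the membrane-binding protein annexin A2, had 22 bins. In SK-Mel-103, UACC-62 replicate 1 and UACC-62 replicate 3, its IP reads were 1578, 505 and 669 and its input reads 3330, 2234 and 1731. Its log2 IP over input was -1.45, -2.30 and -2.07, and the common bins of ANXA2 itself gave -1.67, -2.63 and -1.97. RPSAP9 (chr9:79013615-79014502, plus strand), a copy of the ribosomal protein and laminin receptor gene RPSA, had 18 bins, whose IP reads summed to 1231, 300 and 513 and whose input reads summed to 2602, 1395 and 1232. Its ratios were -1.45, -2.37 and -1.96, and those of RPSA were -1.43, -2.35 and -1.86. Both pseudogenes had more IP and more input reads in SK-Mel-103 than in either UACC-62 replicate, and every bin of ANXA2P2 was below input in all 3 samples.

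HSP90AB3P (chr4:88812995-88815167, plus strand) had 20 bins, with IP reads of 517, 371 and 611 against input reads of 998, 1847 and 1572. Its ratios of -1.32, -2.47 and -2.06 lay beside -1.16, -2.21 and -1.60 for HSP90AB1. Its relative HSP90AB2P was lower, at -1.90, -2.93 and -2.23, and HSP90AA4P, a copy of HSP90AA1, had 7 bins, all below input in every sample. RPL13AP20, a copy of the ribosomal protein gene RPL13A, gave -1.70, -2.58 and -2.28, beside -1.51, -2.40 and -2.06 for its parent. PDIA3P1, a copy of the disulfide isomerase gene PDIA3, gave -0.72, -0.86 and -1.50, and PDIA3 gave -0.79, -1.02 and -1.50. For GTF2IP4, all of whose 24 windows are exact copies of the transcription factor gene GTF2I on the same chromosome, the ratios were -0.56, -1.40 and -1.29, and those of GTF2I were -0.76, -1.31 and -1.57. Reads from identical windows can align to the pseudogene and to its parent, and how many did so was not tested, so their likeness is given as a description.

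Some other pseudogenes differed from the whole of their parent. CHORDC1P4, a copy of CHORDC1, which encodes an HSP90 co-chaperone, gave -0.58, -1.36 and -0.81, whereas the 122 common bins of CHORDC1 gave 1.24, 0.70 and 0.86. At the places of CHORDC1 that match CHORDC1P4, all in its coding region, 6, 5 and 6 bins were listed, with IP reads of 131, 51 and 90 and input reads of 165, 102 and 99. The 6 CHORDC1P4 bins with a copy there had IP reads of 143, 47 and 81 and input reads of 157, 124 and 96, similar to those of the matching stretch. HMGN2P46, a copy of the nucleosome-binding protein gene HMGN2, had 6 bins with ratios of -1.71, -2.17 and -1.78, and HMGN2 gave -0.83, -1.63 and -1.26. At the 4 matching places of HMGN2, IP reads were 265, 133 and 297 and input reads 570, 528 and 659. The 4 HMGN2P46 bins with a copy there had IP reads of 160, 104 and 200 and input reads of 437, 456 and 462. The 17 windows of ENSG00000280852 (chr17:58179120-58180280, minus strand) match AP1S2, the gene for a clathrin adaptor subunit. AP1S2 lies on the X chromosome, outside the common bins, so its ratio as a whole is not given. The pseudogene gave -0.42, -1.31 and -0.77, and yet 5 of its bins were above input in all 3 samples. At the matching places of AP1S2, 9, 10 and 10 bins were listed, with IP reads of 86, 292 and 538 and input reads of 130, 884 and 644.

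Pseudogenes of mitochondrial genes were below input in all 3 samples in 65 bins of 72. The 72 bins in 10 pseudogenes of mitochondrial genes had medians of -2.34, -2.15 and -2.27. Of the 10 pseudogenes, 9 were below 0 in all 3 samples, against 70 of all 114. MTCO1P12 (chr1:566454-567996, plus strand) was the pseudogene with the most bins, 41, with IP reads of 993, 1845 and 2579 and input reads of 3101, 4397 and 5352. Its ratio was -2.02, -1.41 and -1.75. MTCO3P12 and MTCO2P12, copies of the genes for other subunits of the same enzyme in the same stretch of chromosome 1, were lower in every sample. MTCO3P12 gave -3.32, -3.01 and -2.45, and MTCO2P12 gave -3.37, -2.71 and -3.38. At the 40 places of MT-CO1 that match MTCO1P12 bins, 35, 39 and 40 bins were listed in the 3 samples, with 1019, 2708 and 3250 IP reads. The mitochondrial sequence used by the aligner was not analysed here, so matching mitochondrial bins may be displaced by a base or more.

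**Figure D4:**
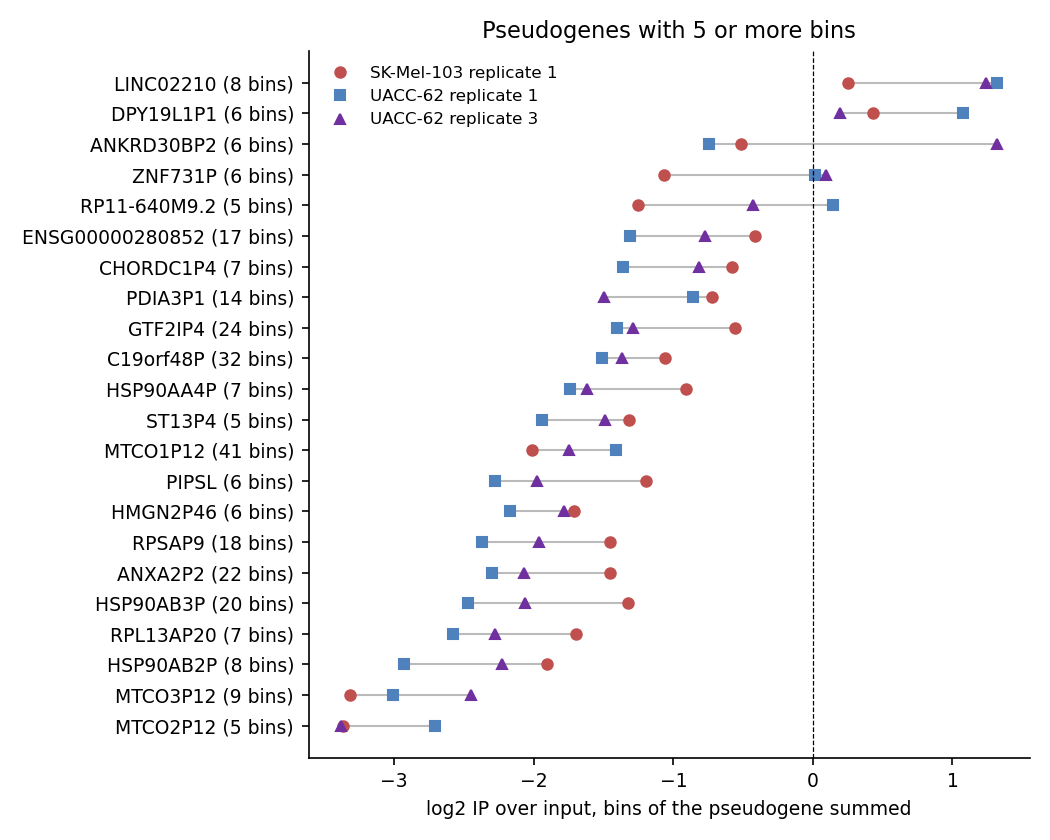
Points give log2 IP over input of the summed bins (x axis) of the 22 pseudogenes with 5 or more bins, for the 3 samples, with a line from the lowest to the highest. Of these pseudogenes, 17 lie below 0 in all 3 samples, against 70 of all 114. LINC02210 and DPY19L1P1 lie above 0 in all 3.

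C19orf48P (chr19:51300944-51308186, minus strand) was the largest group without any copy. It is a transcribed unitary pseudogene, and none of its 32 windows occurs elsewhere within 2 mismatches. Its IP reads were 524, 289 and 278, its input reads 843, 740 and 443, and its ratios -1.06, -1.51 and -1.37. The highest bin held 81, 31 and 26 IP reads and 144, 140 and 87 input reads. Its window (chr19:51300971-51301010, minus strand) is shown in lower case because it holds no GU-rich pentamer.
C19orf48P: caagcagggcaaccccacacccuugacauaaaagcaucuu

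Only LINC02210 and DPY19L1P1, among the 22 pseudogenes with 5 or more bins, had more scaled IP than input in all 3 samples. LINC02210 (chr17:43697694-43732522, plus strand), annotated as a transcribed unitary pseudogene, had IP reads of 50, 63 and 64 and input reads of 32, 22 and 16 in 8 bins, with ratios of 0.25, 1.32 and 1.24. DPY19L1P1 (chr7:32620561-32801399, minus strand), a duplicate of the gene for the C-mannosyltransferase DPY19L1, had IP reads of 41, 140 and 127 and input reads of 23, 59 and 68 in 6 bins, with ratios of 0.43, 1.08 and 0.19. The 124 common bins of DPY19L1 gave 0.97, 1.73 and 1.15. Neighbouring bins of DPY19L1P1 held 9, 19 and 23 and 9, 17 and 21 IP reads. They had no input read in SK-Mel-103 or UACC-62 replicate 1, but 9 and 3 in UACC-62 replicate 3. The window of the first (chr7:32660051-32660090, minus strand) is printed with its GU-rich pentamer in capitals.
DPY19L1P1: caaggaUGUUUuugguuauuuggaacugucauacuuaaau

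Counting every pseudogene, 15 of 114 were above 0 in all 3 samples, 70 below 0 and 29 of mixed sign. The median over these pseudogenes was -0.96, -1.48 and -1.37. Over 7522 protein-coding genes with their bins summed likewise it was also below 0, at -0.47, -0.88 and -0.71. Being below 0 is thus not particular to pseudogenes, and the counts by gene here and above are to be read beside these medians. RP11-640M9.2, with 2 of its 5 windows matching the NBPF family gene NBPF15, was among the mixed, with -1.25, 0.14 and -0.43. The 35 bins above input in all 3 samples lay in 20 pseudogenes, and 12 of them had no copy. Those without a copy that held the most IP reads were single bins, named after their values had been seen. RDM1P5 (chr17:37229381-37229400) had IP reads of 49, 59 and 48 against input reads of 3, 4 and 0. The processed pseudogene ENSG00000259098 (chr15:22546181-22546200) had 79, 64 and 158 against 7, 15 and 10. Both passed the minimum of more than 30 IP reads in every sample. Among those with a copy, EI24P2, a copy of EI24, had IP reads of 46, 84 and 230 against input reads of 23, 40 and 29 over 2 bins, with ratios of 0.60, 0.89 and 2.25.

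Of 10 pseudogenes described elsewhere as regulatory RNAs, TUSC2P1 was not matched in the annotation and 4 held a common bin. Values are given for 3 of the 4 and stand for those pseudogenes alone, so no direction of the list can be read from them. SUMO1P3 gave -0.81, -1.66 and -1.31, RPSAP52 -2.54, -3.003 and -2.84, and FTH1P3, a ferritin heavy chain copy, -3.11, -2.89 and -3.17.

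The bins at the parents were listed as well in most cases. Of the 153 pseudogene bins with an exact copy in a protein-coding exon, the bin at the copy was listed for 107, 107 and 119 in the 3 samples. Where it was listed, the pseudogene bin had more IP reads than the copy in 49, 36 and 47 cases and fewer in 55, 66 and 66. With 1 or 2 mismatches the parent had more reads in 42, 44 and 47 cases and fewer in 17, 14 and 15. The median log2 IP over input at exact copies was -0.998, -1.77 and -1.41, close to the -0.84, -1.74 and -1.51 of the pseudogene bins. Over the 153 bins of 51 pseudogenes whose best protein-coding copy was listed in all 3 samples, the ratios of bin and copy correlated across bins with Pearson's r of 0.46, 0.62 and 0.54. A bin and its copy come from the same libraries and have nearly the same sequence, so this is a description, and whether reads were counted at both places was not tested.

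**Figure D5:**
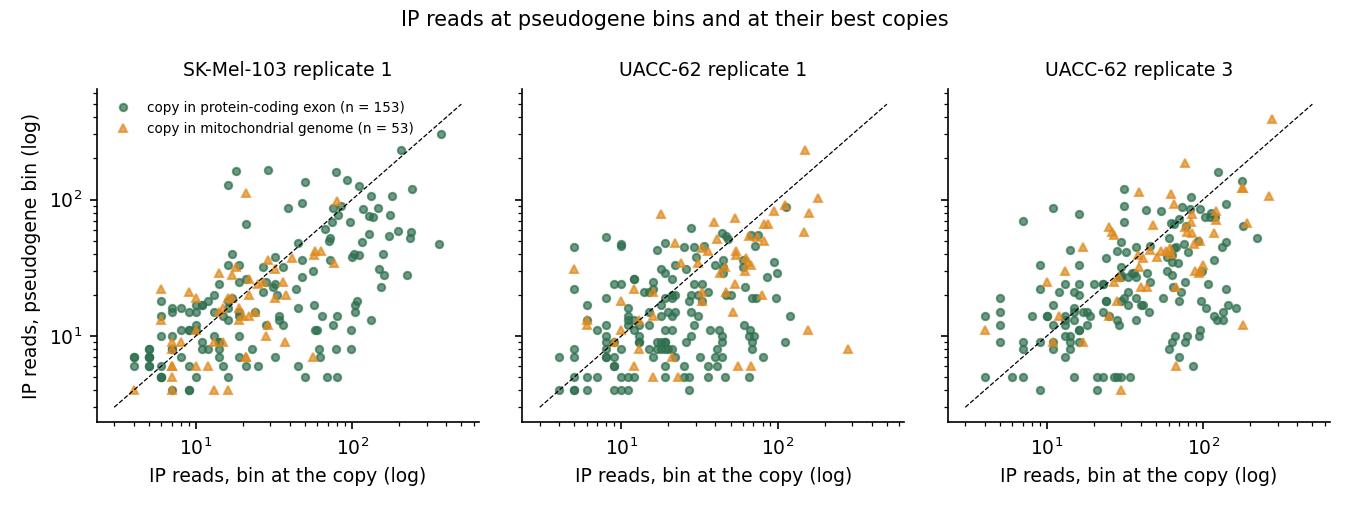
Each point is a pseudogene bin, with its IP reads (y axis, log scale) against the IP reads of the bin at its best copy (x axis, log scale), in each of the 3 samples. Points lie on both sides of the dashed line of equal reads, for 153 copies in protein-coding exons and 53 in the mitochondrial genome.

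Copies in other pseudogenes were seldom listed. Of 14 pairs of a pseudogene bin and an exact copy on the same grid, 13 of them in other pseudogenes and 1 in SPCS2, no copy was listed in any sample. On any grid, the pseudogene windows had 276 exact copies in exons of 139 other pseudogenes, and the bin there was listed for 7, 6 and 8 of them.

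Pseudogenes with a common bin were compared by annotation with all other annotated pseudogenes, some of which had bins listed in 1 or 2 samples. A RefSeq transcript is recorded for 70 of the 100 pseudogenes with a common bin that could be matched by identifier or symbol (70.0%, 60.4 to 78.1%, 14 unmatched). Among the 9087 other annotated pseudogenes that matched, of 13967, it is recorded for 850 (9.35%). The contrast held among processed pseudogenes, with 25 of 43 against 113 of 5887. Of the exact copies of the windows in other pseudogenes, 19.4%, 16.1% and 22.6% were listed where that pseudogene has a RefSeq transcript (31 copies), and 0.508% in each sample where it has none (197 copies). The reads had been aligned with a set of known transcripts supplied to the aligner, and the part that this set played in which pseudogenes were listed was not tested. Since only 65.1% of the other pseudogenes matched by name, their share is uncertain.

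GU-rich pentamers were about as frequent in these windows as in coding regions, and less frequent than in 3′ UTRs. The pentamers UGUGU or UGUUU, searched on the transcript strand with overlaps allowed, occurred in 30 of the 431 windows (6.96%, 4.92 to 9.76%). The share was 7.57% in coding-region bins, 19.3% in 3′ UTR bins and 15.7% in all protein-coding exon bins. The median share of G and U letters was 47.5% in pseudogene and coding-region windows and 52.5% in 3′ UTR windows. The 30 windows with a pentamer had medians of -0.40, -0.99 and -0.79, and the 401 without had -1.14, -1.59 and -1.51. The longer 11-nt repeats of UG or UGUU occurred within 2 mismatches in 2 windows (0.464%), against 0.734% of coding-region bins, 3.82% of 3′ UTR bins and 2.89% of all protein-coding exon bins. A match is a matter of letters and does not show where CELF1 bound.

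Between the UACC-62 replicates, the SD of log2 IP over input had a median of 0.29 over the 22 pseudogenes with 5 or more bins. Among pseudogenes with 5 or more bins, ANKRD30BP2 separated the UACC-62 replicates from each other, with IP reads of 168, 47 and 213 and ratios of -0.51, -0.74 and 1.32. Its windows match another pseudogene on chromosome 18, where no bin was listed. In these bulk lysates, fewer cells with an RNA and less of it per cell cannot be told apart.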

How the data were processed

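RNA immunoprecipitation sequencing was performed by the authors on both lines after formaldehyde fixation, with an antibody to CELF1, ribosomal RNA depletion and 40-nt single-end reads. Per the labels, reads were aligned to GRCh37 (hg19) with TopHat2 2.0.4 and Bowtie 0.12.7, and the methods give other versions. Up to 20 places per read were kept. Piranha was then run in 20-bp bins with input as covariate. The whole-number read counts deposited by the authors are IP reads per bin, without normalization, for bins that passed 0.05 only. The p-value deposited by the authors is that of the bin. The last column deposited by the authors is a ratio, the input reads relative to a constant, with 0.01 for none. Dividing by its smallest step gave whole input reads, with no value more than 0.0247 from a whole number. Input samples had no list of their own among the files used here.

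The strand of the transcript was taken as the reverse of the listed strand. Exons came from GENCODE version 44 mapped to GRCh37. Copies were sought with up to 2 mismatches in both genome strands and across annotated exon junctions, and at most 300 places per window and strand were kept. The search recovered 150 of 150 planted copies, and tests on simulated data recovered 50000 of 50000 input values and placed 4000 of 4000 bins. Log2 IP over input used a pseudocount of 1 read and the totals of the listed bins. Coding regions were preferred to UTRs where transcripts disagreed. Differences between kinds of exon were tested over the 3 samples with exact sign-flip permutation and Benjamini-Hochberg adjustment. Shares carry Wilson 95% intervals, which cover counting error only, as reads without molecular identifiers are not independent molecules. Named pseudogenes were those 10 with the most bins (ties kept), the 10 highest and 5 lowest in log2 IP over input among those with 5 or more bins, the 5 with the largest share of listed IP reads and 10 described regulatory pseudogenes. Other pseudogenes were named after their values had been seen. The members, lists and tests were chosen with earlier results of these data known. RefSeq records were taken by name only. Python 3.11.15, numpy 2.4.6, pandas 2.3.3 and numba 0.67.0 were used. Some items are not reported here.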

Additional observations from a re-analysis of the deposited data

Results flagged for a closer look

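ZNF731P, a transcribed unprocessed zinc-finger pseudogene with 6 bins and no copies, took opposite signs in the cell lines. Its log2 ratio of IP to input was -1.06 for SK-Mel-103 but 0.02 and 0.09 for UACC-62 replicates 1 and 3. The IP reads behind these ratios were 43, 52 and 37, and the input reads 70, 46 and 21. The difference between the lines was not tested, and the UACC-62 values lie close to 0.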

How the results depend on the processing

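Transcripts were placed on the reverse of the listed strand, where 246812 of 271141 common bins lay in protein-coding exons. The paper's methods give a first-strand library setting for the aligner. With transcripts placed instead on the strand given in the lists, 325 bins were selected through that strand. Their medians were reversed in sign, at 1.43 (SK-Mel-103) and 2.20 (UACC-62), and the difference to protein-coding exons was 1.92. With that strand 72.6% of bins were above input, 22.8% had more than 30 IP reads, 31.1% had a copy and 4.62% a pentamer. The difference of -1.34 stayed below 0 in the other 14 alternatives, but its size ranged from -3.02 (more than 30 IP reads) to -0.31 (coding regions only), and was -0.82 without copies, -0.60 within classes of input reads and -0.59 with each gene counted once. Processed pseudogenes alone gave 150 bins, medians of -1.27 and -1.92, 12.7% with more than 30 reads, 90.0% with a copy and 4.67% with a pentamer. Bins with more than 30 IP reads gave 36 bins, medians of -1.54 and -1.999, 5.56% above input, 88.9% with a copy and 2.78% with a pentamer. Bins without a copy gave -0.75 and -0.81, 15.2% above input and 5.06% with more than 30 reads. Of these 79 bins, 32 belonged to C19orf48P. The other 47 had medians of -0.37, -0.16 and -0.11 in SK-Mel-103, UACC-62 replicate 1 and UACC-62 replicate 3. Protein-coding exon bins without a copy had 0.16, -0.16 and 0.08, so the difference without copies depends largely on that 1 pseudogene. Without division by totals the medians were -0.72 and -1.08, with 11.8% above input. Counting each pseudogene once gave -0.96 and -1.43, with 13.2% above input. A pseudocount of 0.5 gave -1.55 in UACC-62. Exact copies alone made up 55.5%. The 11-nt element was in 0.464% of windows, and a pentamer was in 3.02% of the 20-nt bins. In alternatives chosen after seeing the data, leaving out mitochondrial pseudogenes gave -0.89 and -1.42, and leaving out C19orf48P gave -1.55 in UACC-62 and 88.2% with a copy. Leaving out either UACC-62 replicate gave UACC-62 medians of -1.28 to -1.22 and 13.3 to 13.8% above input. The causes were not tested. No paired analysis was possible because SK-Mel-103 and UACC-62 share only 1 replicate number. Few reads per bin limit single-bin ratios.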
